A study of Homo sapiens with 6 samples.

Results

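VEGF, angiopoietin and PDGF genes were examined in the established glioblastoma line U87, of human origin, after exposure to rutaecarpine, an alkaloid from *Evodia rutaecarpa* that activates the aryl hydrocarbon receptor (AhR). The 10 genes were taken by name from the expression table, which lists 60671 genes. They are the VEGF ligands VEGFA, VEGFB and VEGFC, the angiopoietins ANGPT1 and ANGPT2, the angiopoietin-like ANGPTL4, the PDGF ligands PDGFA and PDGFC, and the PDGF receptors PDGFRA and PDGFRB. All 10 names had 1 row each. The rutaecarpine group (n = 3 libraries) received 100 μM rutaecarpine for 48 h, and the control group (n = 3) received 0.1% DMSO for the same time. All 6 cultures held the solvent at 0.1%, since rutaecarpine was dissolved in DMSO, and the dosing medium was free of serum. The purpose of the RNA-Seq experiment was to find migration-related genes that respond to rutaecarpine. The line was grown alone, without the endothelial cells and pericytes on which these ligands act in a tumour. Nothing in the labels says whether the libraries of a group came from separate cultures, and the p values then measure only the spread between these libraries, which may be technical.

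VEGF-A is the main growth factor of blood vessels and acts on the receptor tyrosine kinases KDR and FLT1, with the neuropilins as co-receptors. Angiopoietin 1 activates the receptor TEK and steadies vessels, and angiopoietin 2 acts on the same receptor and can oppose it. PDGF ligands act on PDGFRA and PDGFRB, receptors whose signalling draws pericytes to vessels. Glioblastoma is known for its dense vessels and for secretion of VEGF-A, which low oxygen raises through HIF transcription factors.

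Expression was deposited as TPM, in which reads are divided by gene length and each library is brought to 1 common total. Levels of different genes can therefore be set side by side, but the sequencing depth is unknown. Values of a gene cover all its transcripts, so the splice forms of VEGF-A cannot be told apart, and fewer cells of a type cannot be told apart from less RNA per cell. Differences between groups are given as log2 fold changes of TPM + 1, which understates the change of low genes. Tests were run with limma on the 14377 genes that reached 1 TPM in 3 libraries or more, and p values were adjusted over all of them by the Benjamini-Hochberg method. A gene was called when this adjusted p did not exceed 0.05, and it was a DEG when its log2 fold change was in addition above 1 or below -1. For a single value, 3 libraries against 3 cannot give an exact permutation p below 0.1.

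Control replicate 3 stood apart from the other libraries over all tested genes. Its median log2(TPM + 1) over the tested genes was 3.56, against 3.808 to 3.995 in the other 5 libraries. Its gap to the other controls moved with transcript length. With the genes split by transcript length into 4 bins of about equal size, the median of control replicate 3 minus the mean of control replicates 1 and 2 was 0.10 on the log2 scale in the shortest bin (up to 1861 bases) and -0.66 in the longest (from 4842 bases). Results that rest on this library are therefore given with and without it. The treatment label was checked with CYP1B1, an AhR target, which had a log2 fold change of 2.52 with all libraries and 2.20 without control replicate 3. IL24, the cytokine gene that the study followed, and GAPDH, a glycolytic enzyme, had log2 fold changes of 4.50 and -0.15 with all libraries. Of 7 glioma markers, 5 were tested and limma called 3, where 9.29% of all tested genes were called. VIM, at 6974 to 7968 TPM in the control group and 4430 to 5164 TPM in the rutaecarpine group, fell (log2 fold change -0.63, adjusted p = 0.00894), as did NES (-0.53, adjusted p = 0.0491), and OLIG2 rose (0.83, adjusted p = 0.0262). All 3 were called without control replicate 3. With the libraries centred on their medians NES alone was called, and VIM and OLIG2 had limma adjusted p of 0.0768 and 0.0657. CD44 (0.25) and GFAP (0.18, at 3.48 to 5.41 TPM) were not called, and S100B and SOX2 did not exceed 0.25 and 0.06 TPM in any library. The 8 endothelial markers summed to 2.02 to 2.48 TPM in the control group and 2.52 to 2.95 TPM in the rutaecarpine group, and 7 of them were under 1 TPM in every library.

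With all libraries, none of the 9 members that passed the filter was called by limma, up or down (0 of 9, where 9.29% of all tested genes were called, 4.6% up and 4.68% down, and 3.51% were DEGs, 2.01% up and 1.5% down). At an unadjusted p under 0.05 there were 2 of 9, VEGFA and ANGPT1, where 24.4% of all genes were. Without control replicate 3, limma called 3 of 9 members, where it called 18.7% of all genes (8.36% up and 10.3% down). In that fit VEGFA rose, and ANGPT1 and PDGFC fell. The same 3 members moved the same way with library weights (27.6% of all genes called, 13.5% up and 14.1% down) and after a correction for transcript length and GC content (20.8% called, 9.95% up and 10.9% down). With the libraries centred on their medians, VEGFA and ANGPT1 were called, 2 of 9 (9.59% of all genes called, 4.12% up and 5.47% down). The libraries of the groups did not overlap for 3 of the 9, VEGFA upwards and VEGFB and ANGPT1 downwards, which is the share seen over all tested genes, 33.3% (19.3% up and 14.0% down). The median log2 fold change of the 9 members was -0.16, and that of all tested genes 0.08. ANGPT2 did not pass the filter.

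**Figure D1:**
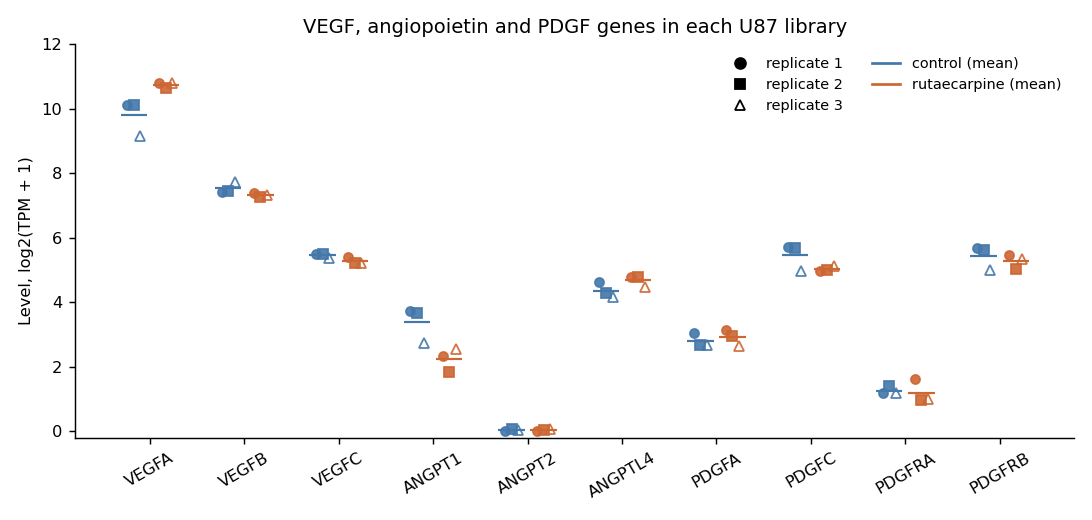
Level of the 10 genes as log2(TPM + 1) in each library, with the control group in blue and the rutaecarpine group in orange. Points are libraries (circle, square and open triangle for replicates 1, 2 and 3) and lines are group means. VEGFA was the most abundant member in all 6 libraries, and ANGPT2 was near 0. The open blue triangle of control replicate 3 lay farthest below the other controls for VEGFA, ANGPT1, PDGFC and PDGFRB. It was also the lowest control, by less, for VEGFC, ANGPTL4, PDGFA and PDGFRA.

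Among the members, VEGFA and VEGFB had the highest levels in all 6 libraries. VEGFA (ENSG00000112715, chromosome 6, 43770184 to 43786487, plus strand, GRCh38) was at 1106, 1111 and 565 TPM in controls 1, 2 and 3 and at 1766, 1590 and 1758 TPM in rutaecarpine libraries 1, 2 and 3. Every rutaecarpine library lay above every control library, and control replicate 3 lay far below the other controls. The mean was 927 ± 314 TPM (SD, n = 3) in the control group and 1704 ± 99.1 TPM (SD, n = 3) in the rutaecarpine group, 1.84 times the control mean. Ranked by mean TPM among the 14377 tested genes, VEGFA stood at 149 in the control group and at 75 in the rutaecarpine group. With all libraries, its log2 fold change was 0.94 (standard error 0.25, 95% confidence interval 0.34 to 1.54) with an adjusted p of 0.0675 from limma.

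When single libraries were left out in turn, VEGFA was called in 1 of 6 fits, that without control replicate 3. In that fit the log2 fold change was smaller, 0.62 (standard error 0.07), and the adjusted p from limma was 0.001. The rutaecarpine mean was then 1.54 times that of the remaining controls. VEGFA was also called when the libraries were centred on their medians (log2 fold change 0.85, limma adjusted p = 0.0332), when libraries were weighted by their spread (0.67, adjusted p = 0.00115) and after correction for transcript length and GC content (0.86, adjusted p = 0.0157). Over the 15 alternatives the log2 fold change ranged from 0.62 to 1.11 and the limma adjusted p from 0.001 to 0.217, and 4 of them passed.

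VEGFB (ENSG00000173511, chromosome 11, 64234538 to 64238793, plus strand), a ligand of FLT1, was at 170, 172 and 210 TPM in the controls and at 164, 153 and 158 TPM after rutaecarpine. The groups did not overlap, but the nearest libraries, control replicate 1 (170.21 TPM) and rutaecarpine replicate 1 (164.41 TPM), were close. Control replicate 3 was the highest control here, not the lowest. VEGFB had a log2 fold change of -0.21 (95% confidence interval -0.45 to 0.03, limma adjusted p = 0.268), and without control replicate 3 it was -0.11 (-0.26 to 0.04). VEGFC (ENSG00000150630, chromosome 4, 176683538 to 176792727, minus strand), which acts on FLT4 and is known for lymphatic vessels, was between 40.4 and 44.4 TPM in the controls and between 36.0 and 40.8 TPM after rutaecarpine. The groups overlapped at their edge, with rutaecarpine replicate 1 at 40.84 TPM and control replicate 3 at 40.35 TPM. VEGFC had a log2 fold change of -0.19 (95% confidence interval -0.43 to 0.05, limma adjusted p = 0.308). Neither VEGFB nor VEGFC was called in any of the 15 alternatives, in which their log2 fold changes lay between -0.30 and -0.10 and between -0.28 and -0.16.

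The balance between the VEGF ligands does not depend on how a library is scaled, but it can carry the length trend of control replicate 3. The median gap of that library to the other controls was 0.10 in the length bin of VEGFB. It was -0.10 in the bin of VEGFC and -0.37 in that of VEGFA. The part of transcript length in the ratios was not tested. Per length, VEGFA exceeded VEGFB 6.50-, 6.46- and 2.68-fold in control replicates 1, 2 and 3, and 10.7-, 10.4- and 11.1-fold in the rutaecarpine replicates. It exceeded VEGFC 25.0-, 25.0- and 14.0-fold in control replicates 1, 2 and 3 and 43.2-, 44.0- and 48.8-fold after rutaecarpine. In both ratios the groups did not overlap, and control replicate 3 was again the farthest from the rutaecarpine libraries. The log2 ratio of VEGFB to VEGFA differed by -1.15 between the groups and that of VEGFC to VEGFA by -1.14 (exact two-sided permutation p = 0.1 for each, the smallest possible, and 0.167 adjusted over 5 ratios). Without control replicate 3 these differences were -0.73 and -0.86. VEGFA made up 83.8%, 83.7% and 69.3% of the summed TPM of the 3 ligands in the control replicates and 89.6%, 89.4% and 90.0% in the rutaecarpine replicates.

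**Figure D2:**
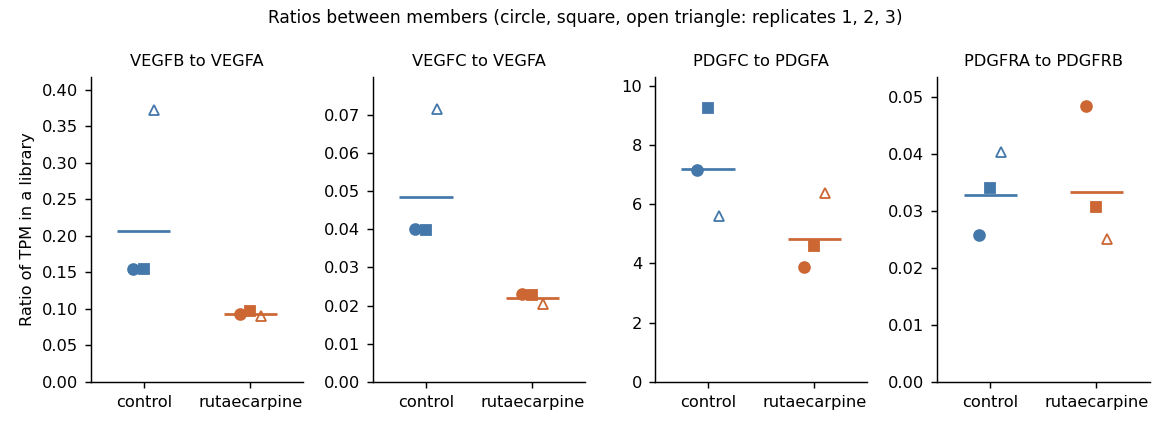
Ratio of the TPM of a pair of members within each library, on linear axes that start at 0. Points are libraries (circle, square and open triangle for replicates 1, 2 and 3) and lines are geometric means. The ratios of VEGFB and of VEGFC to VEGFA were lower in all 3 rutaecarpine libraries than in any control library, whereas the groups overlapped for PDGFC to PDGFA and for PDGFRA to PDGFRB.

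Of the 2 angiopoietins, ANGPT1 was expressed and ANGPT2 was near 0 in all 6 libraries. ANGPT1 (ENSG00000154188), the ligand that activates TEK, was at 12.34, 11.53 and 5.68 TPM in controls 1, 2 and 3 and at 4.04, 2.56 and 4.81 TPM after rutaecarpine. All rutaecarpine libraries lay below all controls, although control replicate 3 was closer to them than to the other controls. The rutaecarpine mean, 3.80 ± 1.14 TPM, was 38.6% of the control mean of 9.85 ± 3.63 TPM (SD, n = 3). Its log2 fold change was -1.14 (standard error 0.32, 95% confidence interval -1.89 to -0.39) with a limma adjusted p of 0.0748. Without control replicate 3 it was -1.46 (standard error 0.22, limma adjusted p = 0.0042), and ANGPT1 was then a DEG. It was also a DEG with the libraries centred on their medians (-1.23, adjusted p = 0.0118), weighted (-1.33, adjusted p = 0.000861) and corrected for length and GC content (-1.35, adjusted p = 0.00171). Over the 15 alternatives the limma adjusted p ranged from 0.000861 to 0.219. The study picked ANGPT1 from these same libraries as a down-regulated migration-related gene, so its direction here is not independent evidence.

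ANGPT2 (ENSG00000091879), which is made mainly by endothelial cells and opposes ANGPT1 at TEK, was listed at 0, 0.05 and 0.03 TPM in the controls and at 0.01, 0.02 and 0.05 TPM after rutaecarpine. At these values no fold change can be given. The planned log2 ratio of ANGPT2 to ANGPT1 (with 1 added to each TPM) therefore reflects ANGPT1 alone, with a difference of 1.14 between the groups (exact permutation p = 0.1).

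ANGPTL4 (ENSG00000167772, chromosome 19, 8363289 to 8374373, plus strand) is an inhibitor of lipoprotein lipase whose gene responds to low oxygen and to PPAR transcription factors. It was at 23.6, 18.5 and 16.9 TPM in the controls and at 26.5, 26.5 and 21.1 TPM after rutaecarpine. The groups overlapped, since control replicate 1 lay above rutaecarpine replicate 3. The log2 fold change was 0.32 (95% confidence interval -0.06 to 0.71, limma adjusted p = 0.284), and none of the 15 alternatives, with values from 0.22 to 0.45, called it.

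RefSeq promoter windows on GRCh38.p14, from 250 bases before to 50 bases after a start, were found for 6 members on 10 starts (VEGFB, VEGFC, ANGPTL4, PDGFA, PDGFRA and PDGFRB). VEGFA and PDGFC had no entry. ANGPT1 and ANGPT2 were left out of the search, so nothing is said here about their promoters. The HIF core ACGTG, which is read CACGT on the opposite strand, was searched because the known regulation of VEGFA and ANGPTL4 involves HIF. It was in 1 of the 10 windows, that of ANGPTL4, and in 21.4% of all 35116 windows. The stretch around it is shown 5′ to 3′ on the strand of the gene, with the core in capitals, 234 bases before the start. A match is a description of the letters only.
ANGPTL4, chr19:8363905-8363955, plus strand: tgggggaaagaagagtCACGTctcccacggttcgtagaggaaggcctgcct

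**Figure D3:**
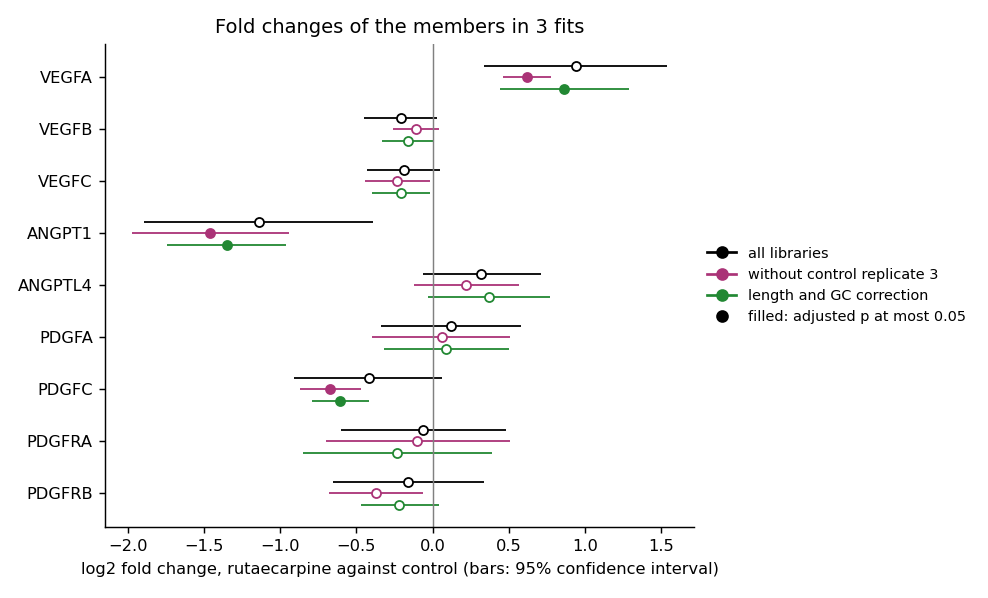
log2 fold change of the 9 tested members, rutaecarpine against control, with 95% confidence intervals, in the fit with all libraries (black), without control replicate 3 (purple) and after correction for transcript length and GC content (green). Filled points have an adjusted p of at most 0.05. No black point is filled, and in both other fits those of VEGFA, ANGPT1 and PDGFC are.

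Of the PDGF ligands, PDGFC was the more abundant. PDGFC (ENSG00000145431, chromosome 4, 156760454 to 156971394, minus strand), a ligand that needs proteolytic release of its active domain, was at 51.39, 49.90 and 30.05 TPM in controls 1, 2 and 3 and at 29.98, 31.07 and 33.55 TPM after rutaecarpine. Control replicates 1 and 2 stood well above the other 4 libraries, and control replicate 3 lay within the range of the rutaecarpine group. With all libraries the log2 fold change was -0.42 (95% confidence interval -0.91 to 0.06, limma adjusted p = 0.265). Without control replicate 3 it was -0.67 (standard error 0.09, limma adjusted p = 0.00216), and PDGFC was also called with library weights (-0.65) and with the length and GC correction (-0.61), though not with the libraries centred on their medians. The limma adjusted p over the 15 alternatives ranged from 0.00141 to 0.928.

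PDGFA (ENSG00000197461, chromosome 7, 497258 to 520296, minus strand), a ligand of PDGFRA, was between 5.36 and 7.20 TPM in the controls and between 5.27 and 7.75 TPM after rutaecarpine. The ranges overlapped almost fully. Its log2 fold change was 0.12 (95% confidence interval -0.34 to 0.58, limma adjusted p = 0.741), and none of the 15 alternatives called it. Per length, PDGFC exceeded PDGFA 7.14-, 9.26- and 5.61-fold in the controls and 3.87-, 4.58- and 6.37-fold after rutaecarpine, so the groups overlapped. The difference in the log2 ratio was -0.57 (exact two-sided permutation p = 0.2, adjusted p = 0.25).

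Of the 6 members searched, PDGFA alone held the AhR site that the study searched for, CACGCNA. On the opposite strand this site is read TNGCGTG, and both strands were counted. It was in 1 of the 10 windows, belonging to 1 of the 4 starts of PDGFA, and in 5.51% of all windows. The 5-base core GCGTG, read CACGC on the opposite strand, overlaps that site and was in 6 of the 10 windows (3 of PDGFA and 1 each of VEGFB, VEGFC and PDGFRB) and in 36.5% of all. The windows are shorter than the promoter stretch searched in the study. The sequence around the site is shown 5′ to 3′ on the strand of the gene because AhR is the receptor that the study examined, with the site in capitals, 220 bases before the start.
PDGFA, chr7:520884-520950, minus strand: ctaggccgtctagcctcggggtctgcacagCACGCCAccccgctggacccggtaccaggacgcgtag

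The receptors were unequal in level. PDGFRB (ENSG00000113721, chromosome 5, 150113837 to 150155872, minus strand) was at 49.8, 48.0 and 31.0 TPM in the controls and at 43.3, 31.4 and 39.2 TPM after rutaecarpine. Rutaecarpine replicate 2 and control replicate 3 were the lowest of their groups, and the groups overlapped. PDGFRB had a log2 fold change of -0.16 (95% confidence interval -0.65 to 0.34, limma adjusted p = 0.678), and without control replicate 3 it was -0.37 (-0.68 to -0.06, limma adjusted p = 0.101). PDGFRA (ENSG00000134853, chromosome 4, 54229097 to 54298247, plus strand) was at 1.28, 1.63 and 1.25 TPM in the controls and at 2.09, 0.96 and 0.98 TPM after rutaecarpine. Rutaecarpine replicate 1 held the highest value of all 6, and its 2 companions the lowest. The log2 fold change of -0.06 (95% confidence interval -0.60 to 0.48) had no settled sign, ranging from -0.27 to 0.06 over 14 alternatives. Per length, PDGFRB exceeded PDGFRA 24.8- to 38.9-fold in the controls and 20.7- to 40.0-fold after rutaecarpine, and the log2 ratio differed by 0.02 (exact permutation p = 1.0).

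PDGFRB is also used as a marker of pericytes, and other pericyte markers were detected in the line. A list of 7 such markers summed to 146 to 206 TPM in the control group and 114 to 154 TPM in the rutaecarpine group. MCAM, CSPG4 and NOTCH3 made up most of this, while KCNJ8 and DES were under 1 TPM in every library. Of 5 tested, 1 was called, where 4.68% of all tested genes were called down. CSPG4, a proteoglycan that binds PDGF-AA, fell from 26.9 ± 4.23 to 15.6 ± 1.23 TPM (SD, n = 3; log2 fold change -0.74, limma adjusted p = 0.0261). With all libraries MCAM, NOTCH3, RGS5 and ABCC9 were not called, with log2 fold changes of -0.40, -0.36, 0.13 and 0.45. The groups did not overlap for ABCC9, upwards. Without control replicate 3, MCAM was called down (-0.56, limma adjusted p = 0.0344) and NOTCH3 was not (-0.47, adjusted p = 0.0573). Both were called down with library weights. With the length and GC correction NOTCH3 was (-0.42, adjusted p = 0.0127) and MCAM was not (-0.44, adjusted p = 0.0634). The part of these markers in the PDGFRB values was not tested.

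**Figure D4:**
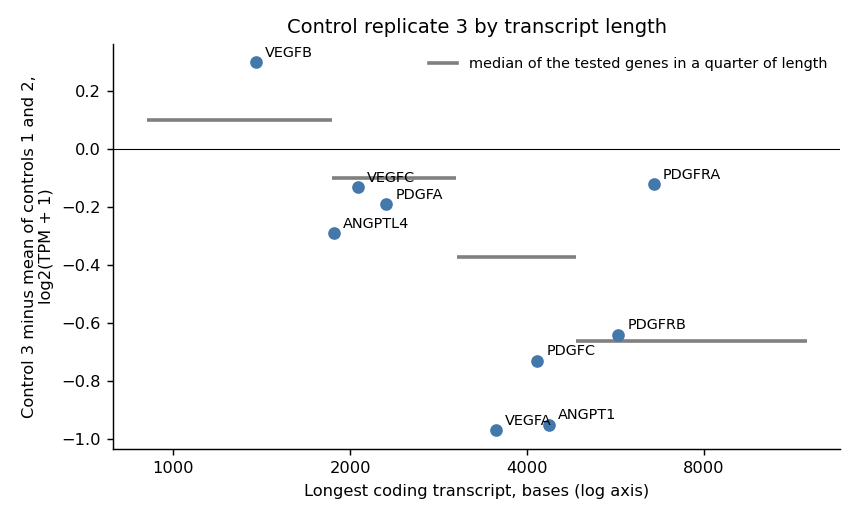
Control replicate 3 minus the mean of control replicates 1 and 2, in log2(TPM + 1), for the 9 tested members (points) against the length of the longest coding transcript (log axis). Grey lines are medians of all tested genes in each of 4 bins of transcript length, drawn only within the axis. VEGFA, ANGPT1 and PDGFC lie at -0.97, -0.95 and -0.73, below the median of genes of their length, and VEGFB at 0.30 lies above it.

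VEGFA, ANGPT1 and PDGFC, called without control replicate 3, had coding transcripts in the third of the 4 length bins. The longest coding transcript in the annotation has 3535 bases for VEGFA, 4165 for PDGFC and 4353 for ANGPT1, all in the bin of genes whose median gap was -0.37. Their own gaps were wider than that median. VEGFB (1380 bases) is in the shortest bin, where the median gap was 0.10. PDGFRB (5717 bases), in the longest bin, had a gap of -0.64, near its median of -0.66. PDGFRA, also in that bin, had a gap of -0.12, at a level near 1 TPM where the added 1 narrows any difference.

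The other genes of these pathways were mostly weakly expressed. Of 7 further VEGF pathway genes, 4 passed the filter, and the 3 others, VEGFD, FLT1 and FLT4, were under 1 TPM in every library. With all libraries limma called none of the 4, where it called 9.29% of all tested genes. At an unadjusted p under 0.05 there was 1 (NRP2), where 24.4% of all tested genes were. The receptor KDR was at 1.28 ± 0.51 TPM in the controls and 1.29 ± 0.30 TPM after rutaecarpine (SD, n = 3). The VEGF family ligand PGF was at 3.35 ± 0.33 and 3.63 ± 0.52 TPM. Among these VEGF pathway genes, those of the neuropilins had the highest RNA levels. NRP1 was at 169, 185 and 85.5 TPM in the controls and at 192, 162 and 196 TPM after rutaecarpine, with overlapping groups. NRP2 had 83.9, 83.7 and 46.3 TPM in the controls and 119, 95.9 and 121 TPM after rutaecarpine, without overlap. Its log2 fold change was 0.69 (limma adjusted p = 0.132), and NRP2 was called without control replicate 3 (0.41, adjusted p = 0.0389) and with the length and GC correction (0.57, adjusted p = 0.00503).

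Of 10 further angiopoietin pathway genes, 3 passed the filter and 1 was called, where 9.29% of all tested genes were called (4.68% down). ANGPTL2, a secreted relative of the angiopoietins, was at 25.4, 25.9 and 25.4 TPM in the controls and at 17.29, 13.01 and 15.30 TPM after rutaecarpine. The controls were tightly grouped, control replicate 3 included. ANGPTL2 fell, with a log2 fold change of -0.72 (standard error 0.13, limma adjusted p = 0.0179), and it was called in 9 of 15 alternatives, in which the adjusted p reached 0.10. When 1 library was left out it was called in 2 of 6 fits, those without control replicate 3 and without rutaecarpine replicate 1. TEK, the receptor of both angiopoietins, was near 1 TPM (1.16 ± 0.44 and 1.03 ± 0.02 TPM, SD, n = 3). TIE1, its partner receptor, had 0.79, 1.10 and 0.72 TPM in the controls and 1.79, 3.83 and 1.19 TPM after rutaecarpine, without overlap and with a limma adjusted p of 0.199. ANGPTL8, not tested, was between 0 and 1.38 TPM, and the other 6 genes were under 1 TPM in every library. The 3 remaining PDGF pathway genes, PDGFB, PDGFD and PDGFRL, were all under 1 TPM in every library.

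Of 9 enzymes and cofactors that process or release VEGF and PDGF ligands, 7 were tested. With all libraries limma called 0 of them, where it called 9.29% of all tested genes. At an unadjusted p under 0.05 there was 1 (FURIN), where 24.4% of all tested genes were. The most abundant were PLAU (116 ± 1.83 and 106 ± 7.13 TPM), FURIN (79.7 ± 0.83 and 65.1 ± 6.96 TPM) and PLAT, a protease that activates PDGF-C (15.3 ± 0.60 and 13.7 ± 0.98 TPM). The median log2 fold change of the 7 tested genes was -0.27. HPSE fell without control replicate 3 (-0.63, limma adjusted p = 0.0436), where 10.3% of all genes fell. HPSE and FURIN fell with library weights and with the length and GC correction, where 14.1% and 10.9% of all genes fell.

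Among 8 secreted inhibitors of angiogenesis, 6 were tested and 2 rose, where 4.6% of all tested genes did. THBS1, thrombospondin 1, was at 8.87, 7.47 and 3.09 TPM in the controls and at 46.4, 32.3 and 42.8 TPM after rutaecarpine. The lowest rutaecarpine library was well above the highest control. THBS1 rose, with a log2 fold change of 2.55 (standard error 0.34, limma adjusted p = 0.00517), and it was called in 15 of 15 alternatives. The study listed THBS1 from these same libraries as an up-regulated migration-related gene, so its direction here is not independent evidence. TIMP3, a protease inhibitor that also blocks binding of VEGF-A to KDR, was at 156, 157 and 117 TPM in the controls and at 240.24, 215 and 206 TPM after rutaecarpine. TIMP3 also rose, with a log2 fold change of 0.63 (standard error 0.13, limma adjusted p = 0.0294), and 6 of 15 alternatives called it. Of the fits without 1 library, only that without control replicate 3 did (0.49, adjusted p = 0.00559). With all libraries THBS2, VASH1, ADAMTS1 and SERPINF1 were not called, with log2 fold changes of -0.36, 0.08, 0.59 and -0.37. THBS2 fell without control replicate 3 (-0.65, limma adjusted p = 0.0365) and with library weights (-0.62, adjusted p = 0.0192). It was not called with the length and GC correction (-0.47, adjusted p = 0.0631) or with the libraries centred on their medians.

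VEGFA and ANGPTL4 are both known as genes induced by low oxygen. Of 8 HIF subunits and oxygen-dependent regulators of HIF, 0 were called by limma with all libraries, where 9.29% of all tested genes were. At an unadjusted p under 0.05 there was 1 (EPAS1), where 24.4% of all tested genes were. HIF1A was at 229 ± 71.5 and 235 ± 33.5 TPM (SD, n = 3). EPAS1, the HIF-2 alpha subunit, was at 296, 292 and 204 TPM in the controls and at 194, 156 and 191 TPM after rutaecarpine, with no overlap, a log2 fold change of -0.53 and a limma adjusted p of 0.102. EPAS1 was called without control replicate 3 (-0.71, adjusted p = 0.00315).

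Of 10 other HIF target genes, all tested, 1 fell and none rose with all libraries. Over all tested genes 4.68% fell and 4.6% rose. CA9, a membrane carbonic anhydrase, was at 500.05, 505 and 489 TPM in the controls and at 297, 324 and 245 TPM after rutaecarpine. Control replicate 3 did not stand apart for this gene. CA9 fell, with a log2 fold change of -0.79 (standard error 0.11, limma adjusted p = 0.00594), and 15 of 15 alternatives called it. LDHA, the most abundant of the list, was at 2251 ± 174 and 1904 ± 177 TPM, and NDRG1 at 1055 ± 156 and 936 ± 77.0 TPM, neither called. The median log2 fold change of the list was -0.08. Without control replicate 3, 5 of the 10 fell (CA9, ADM, LDHA, P4HA1 and PDK1) and none rose, where 10.3% of all genes fell. With library weights 6 of the 10 fell, where 14.1% of all genes did, and with the length and GC correction 1 fell, where 10.9% did. VEGFA was called up without control replicate 3, with library weights and with the length and GC correction, and was not called with all libraries. The relation of VEGFA to these targets was not tested. Of 10 PPAR target genes, 7 were tested and 0 called by limma with all libraries, where 9.29% of all tested genes were. At an unadjusted p under 0.05 there was 1 of these PPAR targets (CPT2), where 24.4% of all tested genes were. Their median log2 fold change was 0.01. Of the 7, 1 rose with library weights, where 13.5% of all genes did. With the length and GC correction 1 rose and 1 fell, where 9.95% and 10.9% of all genes did. Over the 8 pathway lists together, 45 of 65 genes were tested and 4 were called, 2 in each direction, a share near the 9.29% of all genes.

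**Figure D5:**
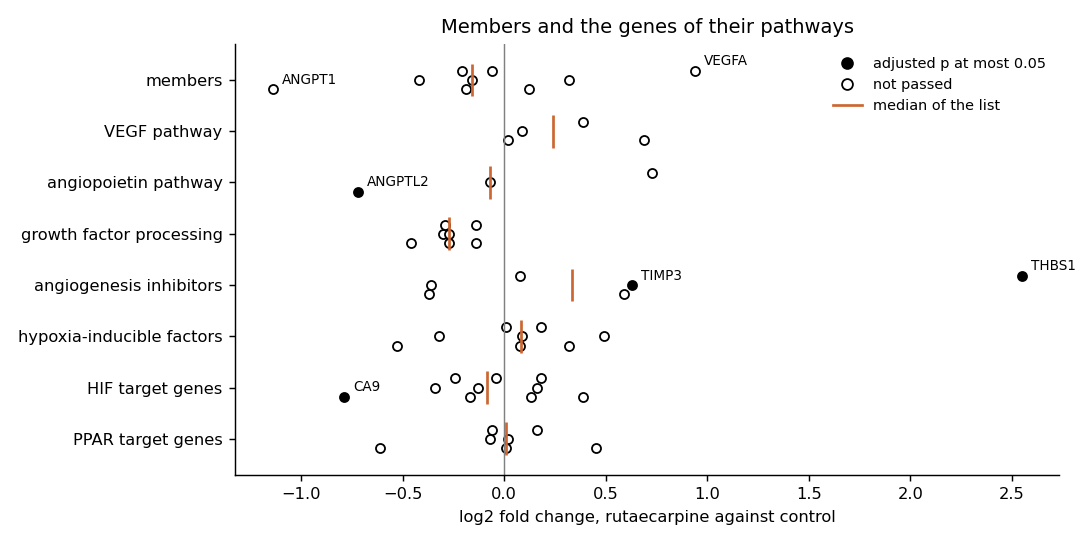
log2 fold change (rutaecarpine against control, all libraries) of the members and of the tested genes of 7 related lists. Each point is a gene, filled where the adjusted p is at most 0.05, and orange lines are list medians. ANGPTL2 and CA9 fell and THBS1 and TIMP3 rose, while VEGFA and ANGPT1 lie at the ends of the members without being called. No PDGF pathway gene was tested.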

How the data were processed

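RNA from U87 cells was sequenced on an Illumina NovaSeq by a company. Genes were quantified with RSEM, and the authors deposited TPM in a column for each library. The submitters' processing notes name GRCh38.p13, and the aligner and annotation are not given in the sources used here. The TPM sums were 990889 to 995734, which leaves the depth unknown and allows no counting interval. All 6 columns were matched to samples by their labels. Of the 60671 rows, 35671 carry no name in the table, and symbols were looked up by Ensembl identifier for 35432 of these.

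TPM were analysed as log2(TPM + 1) with limma 3.58.1 in R 4.3.3 (mean-variance trend, two-sided). Single ratios were compared with an exact permutation test. Tables and figures were made in Python 3.11.15 with pandas 2.3.3, scipy 1.17.1 and matplotlib 3.10.9. Transcript lengths and positions came from GENCODE release 29 on GRCh38, and promoter sequences from RefSeq. The fit was first tested on simulated data, with noise taken from the libraries other than control replicate 3. The planted changes were larger than those of any member. That test therefore covers neither the spread of control replicate 3 nor changes of the size seen in the members.

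The members, the gene lists and the alternatives were chosen with earlier results of these data known. Named are all members, pathway-list genes called by limma, VEGF, angiopoietin and PDGF genes with a mean TPM of at least 1, up to 3 abundant genes of a list, and CYP1B1, IL24 and GAPDH. Genes outside this rule (THBS2, VASH1, ADAMTS1, SERPINF1, HPSE, EPAS1, CPT2, ADM, P4HA1, PDK1, the markers and the genes named as weakly expressed) were named after their values were seen. The length and GC correction (natural splines with 5 degrees of freedom) was added after the data were seen. Protein sequences were not used here.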

Additional observations from a re-analysis of the deposited data

How the results depend on the processing

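With all libraries limma called 1335 genes (505 DEGs, 289 up and 216 down), 0 members and 4 genes of the pathway lists. Leaving out 1 library at a time gave 500 to 2652 called genes, 320 to 585 DEGs (164 to 280 up, 142 to 305 down), 0 to 3 members called, 0 to 1 members as DEGs and 2 to 12 list genes. Of these fits, the highest counts of called genes, members and list genes came without control replicate 3. Library weights gave 3962 called genes, 3 members (1 DEG) and 16 list genes, and the length and GC correction, chosen after seeing the data, gave 2973 called genes, 3 members (1 DEG) and 10 list genes. Centring on the medians gave 2 members (1 DEG), 251 DEGs up and 295 down, and shifted the median log2 fold change of all genes from 0.08 to -0.01. A test against 1.2-fold gave 584 called genes and 2 list genes. The replicate numbers did not pair the samples (correlations of deviations of 0.116, -0.266 and -0.215 for numbers 1, 2 and 3). With the replicate block there were 428 called genes, 318 DEGs, 125 of them down, 0 members and 2 list genes, and ANGPTL2 and TIMP3 were lost (adjusted p = 0.10 and 0.0577 from limma). PDGFRA turned to 0.01 with library weights and ranged from -0.27 to 0.06 without 1 library. The log2 ratio of PDGFRA to PDGFRB ranged from -0.24 to 0.23 without 1 library. No other member or ratio changed sign in the alternatives run. PDGFRA was not tested where every library had to reach 1 TPM.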
